A study of Mus musculus with 4 samples.

Results

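Fatty acid uptake, storage and oxidation genes were compared in the quadriceps of wild-type mice (WT) and of NF90-NF45 double transgenic mice (dbTg). Total RNA was measured on Affymetrix whole-transcript arrays, 1 array for each of 4 mice. WT 1 was a male of 17 to 18 weeks and WT 2 a female of 16 weeks. The dbTg group held a male (dbTg 1) and a female (dbTg 2), both of 16 weeks. NF45 and NF90 are RNA-binding proteins that work as a pair, and NF45 is encoded by Ilf2. The sources used here do not give the promoter of the transgenes or the cells in which it acts, nor the strain of the mice or the hour and feeding state at which muscle was taken. A list of 36 genes was drawn up from knowledge of the pathway, with earlier results of these data known. A gene was read from the rows named for it alone, and from the brightest of them by mean over the 4 arrays, which gave values for 33 of the 36 among 22180 genes in all. Acsl1, Cpt1b and Ucp2 had no such row and are not analysed here. All of the 33 lay above the intensity filter (1.48 on the log2 scale) and were tested in a fit of 13308 genes.

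Array medians over all 41345 probe sets ran from 1.55 to 1.60 on the log2 scale, and no arrays were identical. Ilf2 read 5.03 and 5.04 in WT and 10.36 and 10.16 in dbTg, a rise of 5.23 (limma adjusted p = 7.17e-05) that fits the labels.

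Muscle takes up fatty acids that lipoprotein lipase frees at the capillary wall, binds them to carrier proteins and activates them to acyl-CoA. Acyl-CoA is either stored as triglyceride in lipid droplets or carried into mitochondria as an ester of carnitine. There the beta-oxidation spiral shortens the chain step by step and passes electrons to the respiratory chain through the electron transfer flavoprotein. Malonyl-CoA, made at the mitochondrial surface by the product of Acacb, blocks the carnitine step, so the pathway is tuned to the supply of glucose. Many of these genes are known targets of the nuclear receptors PPAR and ERR and respond to fasting.

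The sites that these receptors bind are built around the 6 bases AGGTCA. RefSeq promoter windows of GRCm38.p6, running from 250 bases before to 50 bases after a transcript start, were found for 30 of the 36 genes. On either strand AGGTCA stood in the windows of 10 of these 30 genes (33.3%), against 18.1% of 27025 genes with a window. A gene was counted if any of its windows held a match, so genes with more transcript starts had more chances. Of all 32851 windows 16.3% held AGGTCA. The ERR site TCAAGGTCA stood in 0 of the 30 and in 0.466% of all genes, and 2 copies of AGGTCA with 1 base between, the PPAR layout, in 0 of the 30 and in 0.0481% of all genes. The longer sites contain AGGTCA, so the counts are nested. The windows of the genes described at length below that held AGGTCA are shown in part, to set the matches beside the array values; of these genes Lpin1 alone was called. Each sequence runs 5′ to 3′ on the strand of the gene, with each AGGTCA, or TGACCT where it lies on the opposite strand, in capitals. The first 5 give the 180 bases before a transcript start, and the last gives 30 bases after the start, where the match of Acacb lies.
Lpin1 (chr12:16610967-16611146, minus strand): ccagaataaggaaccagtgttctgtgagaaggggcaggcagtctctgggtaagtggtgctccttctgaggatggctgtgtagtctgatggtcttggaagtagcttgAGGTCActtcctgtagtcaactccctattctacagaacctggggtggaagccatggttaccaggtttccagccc
Ucp3 (chr7:100472811-100472990, plus strand): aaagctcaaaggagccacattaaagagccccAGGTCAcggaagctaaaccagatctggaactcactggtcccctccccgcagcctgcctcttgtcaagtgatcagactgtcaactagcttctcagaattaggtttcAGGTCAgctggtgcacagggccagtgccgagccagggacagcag
Cpt1a (chr19:3323121-3323300, plus strand): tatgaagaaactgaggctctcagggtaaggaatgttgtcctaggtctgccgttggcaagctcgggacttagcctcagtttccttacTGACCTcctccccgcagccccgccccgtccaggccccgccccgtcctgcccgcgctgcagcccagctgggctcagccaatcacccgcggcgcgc
Plin5 (chr17:56117549-56117728, minus strand): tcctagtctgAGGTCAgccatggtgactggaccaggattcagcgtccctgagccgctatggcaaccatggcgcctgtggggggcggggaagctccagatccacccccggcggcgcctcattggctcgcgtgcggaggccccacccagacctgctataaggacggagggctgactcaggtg
Acadvl (chr11:70015429-70015608, minus strand): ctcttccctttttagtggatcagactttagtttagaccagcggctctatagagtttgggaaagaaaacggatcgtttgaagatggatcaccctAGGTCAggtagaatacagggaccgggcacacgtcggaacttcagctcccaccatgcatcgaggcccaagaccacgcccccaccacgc
Acacb (chr5:114165538-114165567, plus strand): gacttgcctggttttctcctgccTGACCTt

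The match began 74 bases before the transcript start in Lpin1, 87 in Acadvl, 94 in Cpt1a and 170 in Plin5. Ucp3 held 2 matches in its window, at 149 and 44 bases before its start. The transcript starts used for Lpin1, Cpt1a, Plin5 and Acacb were not the start of the gene in RefSeq. Plin5 held another at 14 bases after a second transcript start, which is not shown. A match is a string of letters in a short window, and binding of a receptor was not measured here.

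Most of the 33 genes read lower in dbTg muscle, by a small amount, and 1 of them passed the test over all genes. The differences of 26 genes were negative and those of 7 positive. The median log2 difference (dbTg minus WT) was -0.31, against 0.09 over all 13308 tested genes. In limma with Benjamini-Hochberg adjustment over all tested genes, Lpin1 fell and no member rose. Over all genes 0.203% were called lower and 2.01% higher. At a raw p (before adjustment) below 0.05, 5 members were lower (Lpin1, Acacb, Crat, Ucp3 and Etfb), where 4.64% of all genes were, and 1 was higher (Cpt1a), where 14.0% were. Both dbTg arrays lay below both WT arrays for 12 of the 33 genes, against 16.3% of all tested genes. After quantile normalization of the arrays they did so for 13 genes, against 23.9%. Both dbTg arrays lay above both WT arrays for 3 (Cpt1a, Fabp3 and Plin2), against 33.7%, and for 0 after that normalization, against 24.9%. The count of negative differences was 26 after median centring and after quantile normalization as well.

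**Figure D1:**
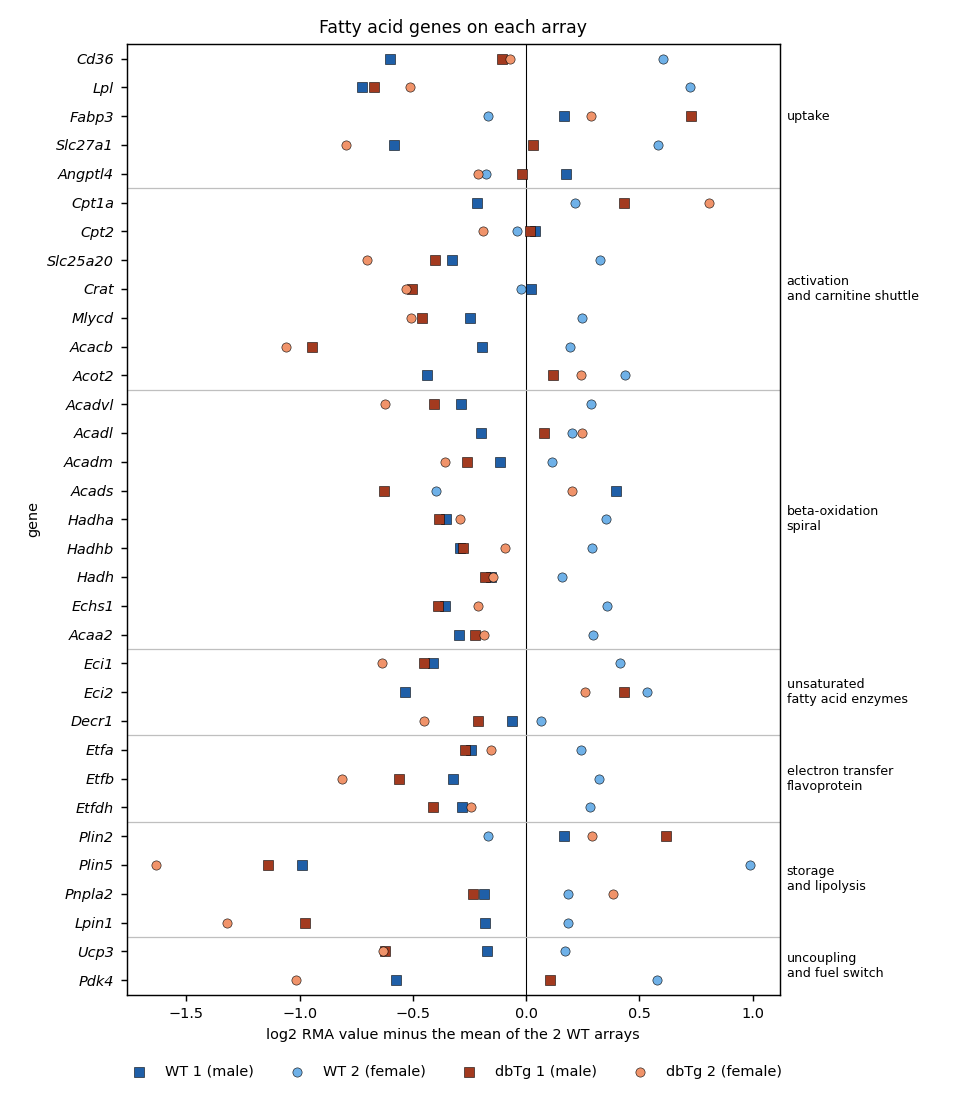
Log2 expression of the 33 fatty acid genes on each of the 4 arrays, drawn as the value minus the mean of the 2 WT arrays and grouped by role; squares are males and circles females. WT 2 (light blue circles) is the highest array for 24 of the 33 genes, while WT 1 and the dbTg arrays lie close together for most genes of the beta-oxidation spiral.

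The size of the difference depended on which WT mouse served as the control. WT 2 read higher than WT 1 for 27 of the 33 genes (81.8%), against 49.2% of all tested genes, with a median gap of 0.49. WT 2 was the highest of the 4 arrays for 24 genes (72.7%), against 21.8% of all tested genes. The 2 dbTg arrays lay closer together, with a median absolute gap of 0.18 against 0.56 between the WT arrays. Over all tested genes these median gaps were 0.20 and 0.25. For 22 of the 33 genes (66.7%) the gap between the WT arrays was larger than the difference between the group means, against 50.3% of all tested genes. Against WT 1 alone the median difference of the members was -0.006, with 17 of 33 negative, and against WT 2 alone it was -0.50, with 28 of 33 negative. The median was -0.032 in the male pair and -0.52 in the female pair. The WT mice differed in sex and age, and these cannot be told apart from other differences between 2 animals.

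**Figure D2:**
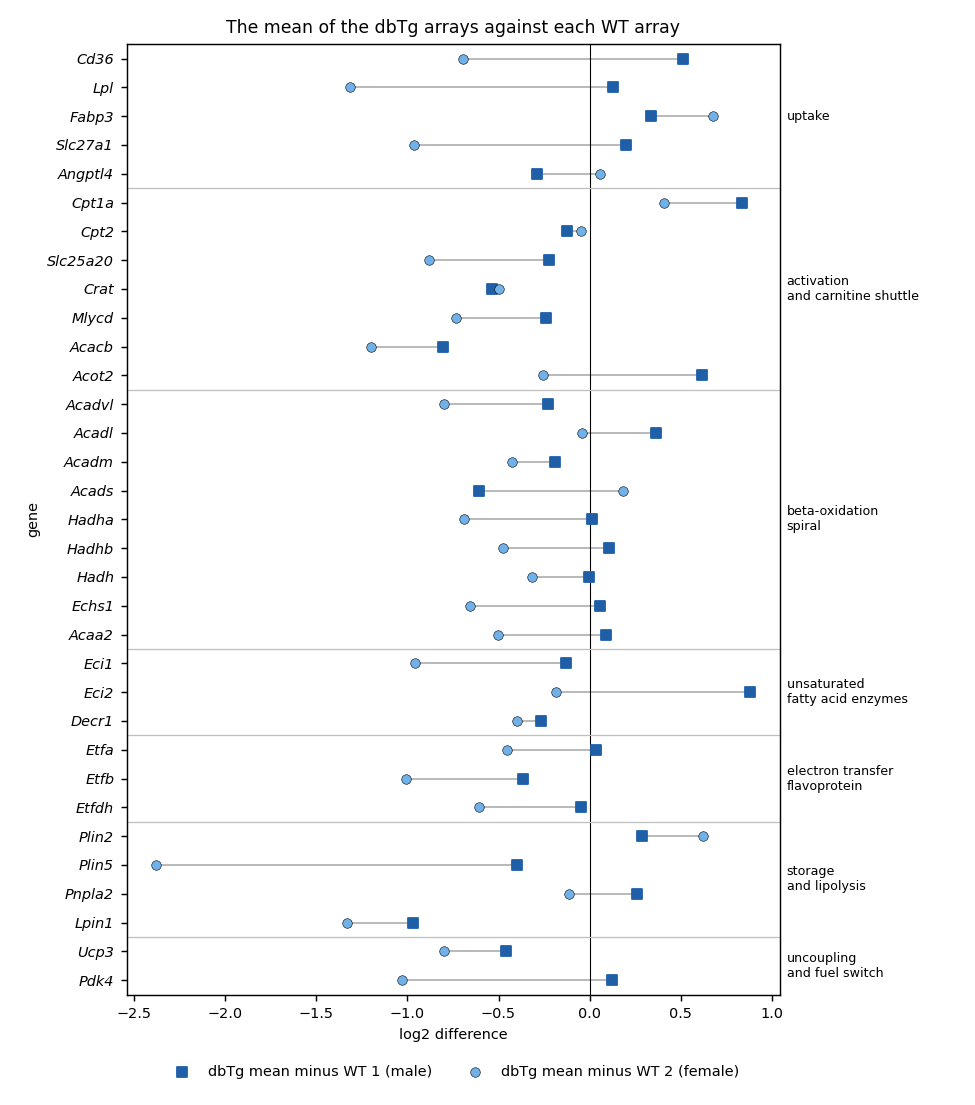
Log2 difference of the mean of the 2 dbTg arrays from WT 1 (squares) and from WT 2 (circles) for the 33 genes; a grey line joins the values of a gene. The circles lie to the left of 0 for 28 genes and the squares for 17. Many genes lie to the left with both, among them Lpin1, Acacb, Crat, Ucp3, Etfb, Plin5 and Acadm.

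Lpin1 had the strongest support of the 33 genes. It encodes lipin 1, a phosphatidate phosphatase of triglyceride synthesis that also acts in the nucleus with PPAR alpha and PGC-1 alpha. The arrays read 8.01 (WT 1), 8.38 (WT 2), 7.22 (dbTg 1) and 6.87 (dbTg 2) on the log2 scale (probe set 17280062). Both dbTg arrays lay below both WT arrays, and the gap between the groups exceeded the gap within either. Lpin1 fell by 1.15 on the log2 scale (SE 0.19, limma adjusted p = 0.0413), so WT muscle was 2.22-fold higher. The difference was -1.33 without WT 1 and -0.97 without WT 2, called in both fits (limma adjusted p = 0.0105 and 0.0339). It was not called without dbTg 1 (-1.32) or without dbTg 2 (-0.98), nor after quantile normalization (-1.14, limma adjusted p = 0.0623). The call of Lpin1 was also lost without the intensity filter (limma adjusted p = 0.057) and without the eBayes trend (limma adjusted p = 0.067). With the replicate number as a block it was lost as well (limma adjusted p = 0.097).

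Acacb was close to the threshold. It encodes acetyl-CoA carboxylase 2, which makes the malonyl-CoA that restrains fatty acid entry into mitochondria. Acacb read 5.90 and 6.29 in WT and 5.15 and 5.04 in dbTg, and the groups did not overlap (probe set 17440826). The log2 difference was -1.002 (SE 0.20, limma adjusted p = 0.0566), which makes WT 2.00-fold higher. It was called without WT 1 (-1.20, limma adjusted p = 0.0152), with a filter at the 60th percentile (limma adjusted p = 0.0463) and with robust eBayes (limma adjusted p = 0.0484). Over all alternatives the adjusted p of Acacb ran from 0.0152 to 0.411. Mlycd, the malonyl-CoA decarboxylase that removes the same inhibitor, read 3.08 and 3.57 in WT and 2.86 and 2.82 in dbTg, a difference of -0.48 that lay within the gap between the WT arrays (limma adjusted p = 0.351).

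Crat was the member least affected by the choice of WT mouse. It encodes carnitine acetyltransferase, which buffers mitochondrial acetyl-CoA by moving acetyl groups onto carnitine. Crat read 7.64 and 7.60 in WT and 7.12 and 7.10 in dbTg (probe set 17383633). The arrays of each group agreed within 0.04, and the groups did not overlap. The difference was -0.52 (SE 0.14, limma adjusted p = 0.112), -0.54 without WT 2 and -0.50 without WT 1. A dimmer probe set of Crat, with WT values of 1.94 and 1.79, differed by -0.52 as well. Lpin1, Acacb and Crat were lower by raw p in all 12 alternative fits, including those without each array in turn.

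**Figure D3:**
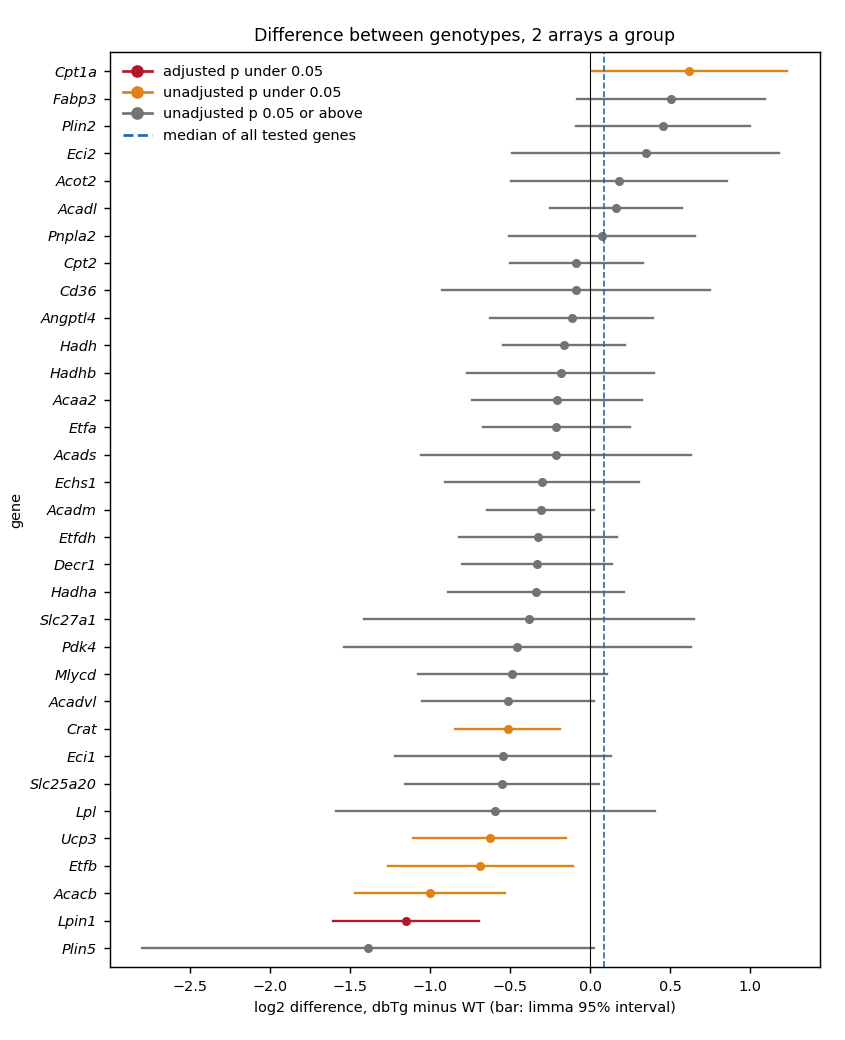
Log2 difference between dbTg and WT (2 arrays each) for the 33 genes, ordered by size, with limma's 95% interval as a bar; the dashed line marks the median of all tested genes, 0.09. Lpin1 is past the adjusted threshold, and Acacb, Etfb, Ucp3, Crat and Cpt1a have intervals that do not reach 0.

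Among the other genes of activation and the carnitine shuttle, Cpt1a went the opposite way. It encodes the carnitine palmitoyltransferase 1 form of liver and many other tissues, whereas muscle fibres chiefly use the form encoded by Cpt1b. Cpt1a read 2.74 and 3.17 in WT and 3.39 and 3.76 in dbTg, both dbTg arrays above both WT arrays. Its difference was 0.62 (SE 0.26, limma adjusted p = 0.261), and 0.41 with overlapping groups after quantile normalization. Slc25a20, the carnitine-acylcarnitine carrier of the inner membrane, read 5.65 and 6.31 in WT and 5.58 and 5.28 in dbTg (difference -0.55, limma adjusted p = 0.306). Cpt2, which returns the acyl group to CoA inside the mitochondrion, differed by -0.09, with an interval from -0.50 to 0.33. Acot2, a mitochondrial acyl-CoA thioesterase, differed by 0.18, with WT 1 lowest at 5.85 and WT 2 highest at 6.72.

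No gene of the beta-oxidation spiral was called, and 8 of 9 had negative differences (median -0.21). The largest was that of Acadvl, the very long chain acyl-CoA dehydrogenase that opens the spiral, which read 6.15 and 6.73 in WT and 6.03 and 5.82 in dbTg (difference -0.51, SE 0.23, limma adjusted p = 0.284). Both dbTg arrays lay below both WT arrays, but dbTg 1 was within 0.12 of WT 1. Hadha, the alpha subunit of the trifunctional protein, read 8.07 and 8.78 in WT and 8.04 and 8.14 in dbTg (difference -0.34, SE 0.23, limma adjusted p = 0.492). WT 1 was level with the dbTg arrays, and without WT 2 the difference of Hadha was 0.015. The same order, with WT 2 alone high, was seen for Hadh, Echs1 and Acaa2, which encode the hydroxyacyl-CoA dehydrogenase, the enoyl-CoA hydratase and the thiolase of the spiral. For these the difference from WT 1 was -0.006 to 0.09 and that from WT 2 was -0.66 to -0.32. Hadhb, the beta subunit of the trifunctional protein, read 1.59 to 2.17 on a probe set close to the intensity filter, and differed by -0.18.

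The acyl-CoA dehydrogenases did not share one order of arrays. These enzymes catalyse the same step on chains of decreasing length. Acadm, for medium chains, read 8.64 and 8.88 in WT and 8.501 and 8.40 in dbTg, without overlap (difference -0.31, interval -0.64 to 0.03). Acadl, for long chains, differed by 0.16, and dbTg 2 was its highest array at 8.30. Acads, for short chains, read 5.74 in WT 1, 4.95 in WT 2, 4.72 in dbTg 1 and 5.55 in dbTg 2. It was therefore lower in dbTg by 1.02 in the male pair and higher by 0.60 in the female pair.

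The enzymes for unsaturated chains and the electron transfer flavoprotein also had WT 2 as their highest array, in 6 of 6 genes. Eci1, a mitochondrial enoyl-CoA isomerase that shifts double bonds, read 5.24 and 6.07 in WT and 5.21 and 5.02 in dbTg (difference -0.54, SE 0.28, limma adjusted p = 0.363). Without WT 1 it was called (-0.96, limma adjusted p = 0.0363), and without WT 2 the difference of Eci1 was -0.13. Eci2, a second isomerase found in peroxisomes and mitochondria, read 3.31 and 4.37 in WT and 4.27 and 4.10 in dbTg, with WT 1 standing low. Its difference was 0.35 (SE 0.35, limma adjusted p = 0.652), and -0.19 without WT 1. Decr1, the dienoyl-CoA reductase, differed by -0.33 without overlap (limma adjusted p = 0.425).

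Etfb, the beta subunit of the electron transfer flavoprotein, read 6.20 and 6.84 in WT and 5.96 and 5.70 in dbTg. The groups did not overlap, with a difference of -0.69 (SE 0.24, limma adjusted p = 0.196). It was -1.01 and called without WT 1 (limma adjusted p = 0.0286), and -0.37 without WT 2. Etfdh, the dehydrogenase that hands the electrons on to ubiquinone, read 7.71 and 8.27 in WT and 7.58 and 7.75 in dbTg (difference -0.33, SE 0.21, limma adjusted p = 0.456). Etfa, the alpha subunit, differed by -0.21. In Etfa and Etfdh dbTg 2 lay above WT 1, so the groups overlapped.

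Genes of fatty acid uptake gave no call, and 3 of 5 had WT 2 as the highest array. Lpl, lipoprotein lipase, read 7.05 in WT 1 and 8.49 in WT 2, and 7.10 and 7.26 in dbTg. The difference was -0.59 (SE 0.42, limma adjusted p = 0.505), -1.32 and called without WT 1 (limma adjusted p = 0.00714) and 0.13 without WT 2. A dimmer probe set of Lpl repeated the order, with 4.14 in WT 2 and 2.59 to 2.85 on the other arrays. Cd36, the fatty acid translocase of the cell surface, read 7.73 and 8.93 in WT and 8.23 and 8.26 in dbTg, so both dbTg arrays lay between the WT arrays. Slc27a1, the transport protein FATP1, differed by -0.38, with an interval from -1.41 to 0.65. Fabp3, the cytosolic fatty acid carrier of heart and muscle, read 3.65 and 3.31 in WT and 4.21 and 3.77 in dbTg (difference 0.51, SE 0.25, limma adjusted p = 0.333). Its dimmer probe set differed by -0.17, and with the mean of both the difference was 0.17. Angptl4, a secreted inhibitor of lipoprotein lipase, read 1.73 to 2.12, near the intensity filter, and differed by -0.12.

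Lipid droplet genes differed in direction. Plin5, the perilipin that ties droplets to mitochondria in oxidative muscle, had the largest difference of all members. It read 2.45 in WT 1 and 4.43 in WT 2, and 2.30 and 1.81 in dbTg. Both dbTg arrays lay below both WT arrays, yet the difference of -1.39 (SE 0.59, limma adjusted p = 0.274) was smaller than the gap of 1.98 between the WT arrays. It was -2.38 without WT 1 (limma adjusted p = 0.00423) and -0.40 without WT 2 (limma adjusted p = 0.492). Plin2, the perilipin that coats droplets in most cell types, read 3.99 and 3.66 in WT and 4.45 and 4.12 in dbTg (difference 0.46, SE 0.23, limma adjusted p = 0.345). Pnpla2, the adipose triglyceride lipase, differed by 0.07, with an interval from -0.51 to 0.65.

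Ucp3, the muscle uncoupling protein, read 4.87 and 5.21 in WT and 4.42 and 4.41 in dbTg. Its groups did not overlap, and the dbTg arrays differed by 0.01. The difference was -0.63 (SE 0.20, limma adjusted p = 0.161), -0.46 without WT 2 and -0.80 without WT 1. Pdk4, the pyruvate dehydrogenase kinase that spares glucose when fat is burned, read 8.23 and 9.38 in WT and 8.91 and 7.78 in dbTg. Its spread within each group exceeded the difference of -0.46 (SE 0.46, limma adjusted p = 0.649). Pdk4 was higher in dbTg by 0.68 in the male pair and lower by 1.60 in the female pair.

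**Figure D4:**
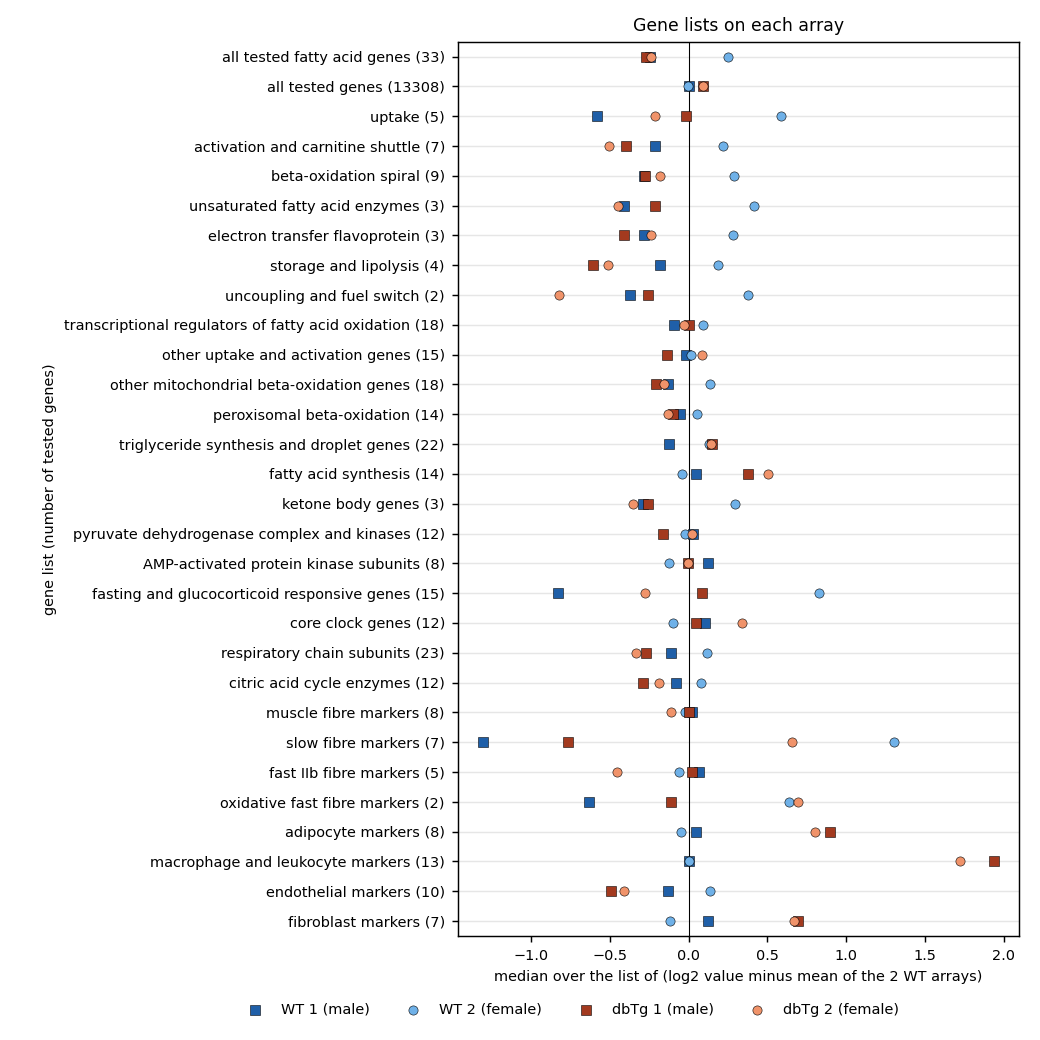
Median over each gene list of the log2 value minus the mean of the 2 WT arrays, on each array; the number of tested genes stands after the name of each list. WT 2 stands above WT 1 by 1.66 in the fasting and glucocorticoid responsive genes and by 2.61 in the slow fibre markers, and the dbTg arrays stand at 1.94 and 1.72 in the macrophage and leukocyte markers.

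Other genes of the pathway were read from lists drawn up by function. The counts of these and the later lists stand beside the shares of all tested genes in the main fit. Of all tested genes 2.01% were called higher and 0.203% lower, and by raw p 14.0% were higher and 4.64% lower. Among 18 tested transcriptional regulators, 0 were called, and 2 were higher and 2 lower by raw p (median -0.05). Pparg, the nuclear receptor of fat cell formation, read 2.65 and 2.90 in WT and 3.70 and 3.90 in dbTg (difference 1.03, limma adjusted p = 0.072). Rxra, the shared partner of the PPAR receptors, read 5.69 and 5.58 in WT and 4.93 and 4.82 in dbTg (difference -0.76, limma adjusted p = 0.0803). The list of other mitochondrial beta-oxidation genes, which took in related genes as well (18 tested, median -0.16), had 0 calls. By raw p 1 was higher and 1 lower. These were Cpt1c, a relative of Cpt1a (0.64, from WT values under the intensity filter), and the thiolase gene Acat1 (-0.52). The list of peroxisomal beta-oxidation, which took in other peroxisomal genes such as Phyh (14 tested, median -0.13), had 0 calls. By raw p 2 were lower, Ehhadh (-0.56) and Phyh (-0.53). Other uptake and activation genes (15 tested, median 0.01) had 0 calls, with Fabp4, the fatty acid carrier of fat cells and endothelium, at 0.52 and Acsl4, an acyl-CoA synthetase, at 0.45. Ketone body genes (3 tested, median -0.31) had 0 calls at either threshold, with Bdh1 at -0.64 and Oxct1 at -0.31.

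Of 14 tested fatty acid synthesis genes, 2 rose and 0 fell, and by raw p there were 6 higher and 2 lower (median 0.27). Fasn, fatty acid synthase, read 2.94 and 2.95 in WT and 4.15 and 4.42 in dbTg, a rise of 1.34 (limma adjusted p = 0.0357). Scd1, the stearoyl-CoA desaturase, read 5.20 and 4.996 in WT and 6.08 and 6.59 in dbTg, a rise of 1.23 (limma adjusted p = 0.0456). Both lost their calls after quantile normalization (limma adjusted p = 0.0752 and 0.0797) and without either dbTg array (limma adjusted p of 0.154 to 0.366). Scd1 also lost its call without the intensity filter (limma adjusted p = 0.0692) and without the eBayes trend (limma adjusted p = 0.0617). Genes of triglyceride synthesis and droplets (22 tested, median 0.13) had 0 calls and 3 higher by raw p. Cidec, a droplet protein of fat cells that also stands in the adipocyte list, was the nearest, at 1.47 (limma adjusted p = 0.0555), followed by Lpin2, a relative of Lpin1, at 1.02 (limma adjusted p = 0.0777). Lpin2 read 1.72 and 1.39 in WT and 2.43 and 2.73 in dbTg, the opposite direction to Lpin1.

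Fat cell markers were higher on the same arrays. All 8 tested adipocyte markers but 1 had positive differences (median 0.87), with Adipoq (1.47, limma adjusted p = 0.0376) and Lep (1.31, limma adjusted p = 0.0442) called. Their mean log2 level was 3.73 and 3.76 in WT and 4.72 and 4.50 in dbTg, and Adipoq read 1.89 to 2.20 in WT. Lep read 1.46 and 1.06 in WT, under the intensity filter, and 2.43 and 2.72 in dbTg, so it was tested only through its dbTg values and was not called without the filter (limma adjusted p = 0.0636). Both calls were lost after quantile normalization (limma adjusted p = 0.0664 for each) and without either dbTg array. Macrophage and leukocyte markers stood at a mean log2 level of 2.96 and 2.81 in WT and 5.11 and 4.77 in dbTg, with 10 of 13 called higher. The smallest p-values were those of Ctss (difference 4.23), Cd68 (3.76), Ptprc (2.79) and Lyz2 (2.32). Of the 10, C1qc averaged 1.43 in WT, below the filter, and was tested only because of its dbTg values. Of the 10 genes, 8 were called after quantile normalization and 1 (Ctss) without either dbTg array. Fibroblast markers stood at 6.07 and 5.92 in WT and at 6.74 and 6.76 in dbTg, with 0 of 7 called, Dpt at 0.74 and Col3a1 at 1.24. Endothelial markers, whose cells carry Cd36 and lipoprotein lipase at the capillary wall, stood at 4.18 and 4.52 in WT and at 3.76 and 3.92 in dbTg, with 0 of 10 called and all 10 negative, among them Cdh5 at -0.85 (limma adjusted p = 0.0929) and Kdr at -0.85 (limma adjusted p = 0.184). In whole muscle, fewer cells of a type and less RNA per cell cannot be told apart. The part of these cells in the values of the fatty acid genes was not tested.

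Several lists shared the gap between the WT arrays. Of 15 tested genes that respond to fasting and glucocorticoids, 14 were higher in WT 2 than in WT 1, by a median of 1.66. Among them Cdkn1a read 3.14 in WT 1 and 6.51 in WT 2, and Mt2 read 4.51 and 7.36. Their mean log2 level was 4.65 in WT 1, 6.20 in WT 2, 5.89 in dbTg 1 and 5.60 in dbTg 2. Between genotypes 0 of the 15 were called, with 3 higher by raw p, led by the metallothionein genes Mt2 (3.09, limma adjusted p = 0.105) and Mt1 (2.31, limma adjusted p = 0.108). Core clock genes (12 tested, median 0.27, 0 calls) had a gap as well, in both directions. Dbp read 6.11 in WT 1, 4.20 in WT 2, 5.99 in dbTg 1 and 6.67 in dbTg 2 (limma adjusted p = 0.333), and Clock differed by 0.33 (limma adjusted p = 0.27).

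Slow fibre markers differed more between the mice of a genotype than between the genotypes. All 7 were higher in WT 2 than in WT 1, by a median of 2.61, and dbTg 2 was above dbTg 1 by a median of 1.42. The slow myosin gene Myh7 read 2.30, 6.29, 1.62 and 5.33 in WT 1, WT 2, dbTg 1 and dbTg 2. The slow calcium pump gene Atp2a2 read 5.40, 8.01, 6.92 and 7.61 in that order, and the slow light chain gene Myl3 differed by -0.75 between the groups (limma adjusted p = 0.756). For the 33 fatty acid genes the median of WT 2 over WT 1 was 0.49, and that of dbTg 2 over dbTg 1 was -0.05. Fast oxidative myosin genes also differed within both groups, with Myh2 at 7.83 and 9.90 in WT and 8.24 and 9.63 in dbTg, and Myh1 differed by 0.51 (limma adjusted p = 0.191). Fast IIb fibre markers had 1 call among 5, the light chain kinase gene Mylk2 (-1.43, limma adjusted p = 0.0152), which was lost without dbTg 1 and without dbTg 2 (limma adjusted p = 0.0799 and 0.151). General muscle fibre markers were near level, at a median of -0.05 over 8 genes with 0 called, with Pygm at -0.43 and Des at 0.41. The part of fibre type, feeding state, stress or hour of sampling in the fatty acid genes was not tested.

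Mitochondrial lists outside fatty acid oxidation showed the WT gap in smaller size. Respiratory chain subunits (23 tested, median -0.30, 0 calls, 4 lower by raw p) were higher in WT 2 than in WT 1 for 21 genes, by a median of 0.23. Both dbTg arrays lay below both WT arrays for 16 of them, against 16.3% of all tested genes, with Cox5b at -0.48 and Ndufb6 at -0.49. Citric acid cycle enzymes (12 tested, median -0.24, 0 calls, 3 lower by raw p) were higher in WT 2 for 11, by a median of 0.16, with Ogdh at -0.35 and Suclg1 at -0.43. Against WT 1 alone the medians were -0.16 and -0.18 in these lists, and -0.006 in the fatty acid genes. The pyruvate dehydrogenase complex and its kinases (12 tested, median -0.02, 0 calls) had 2 lower by raw p, Pdpr (-0.84, limma adjusted p = 0.0512) and Pdk2 (-0.49, limma adjusted p = 0.183). The AMP-activated protein kinase switches off the product of Acacb by phosphorylation. Genes of its subunits, listed with that of the upstream kinase Stk11, had 0 calls among 8 (median 0.05). Prkab2 read 7.61 and 7.42 in WT and 6.89 and 6.57 in dbTg (difference -0.78, limma adjusted p = 0.0757), and Prkaa1 differed by 0.68 (limma adjusted p = 0.123).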

How the data were processed

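The authors deposited log2 values summarised by RMA in Expression Console, per the labels. The software version and the genome build of the array were not stated there. RMA normalizes arrays against each other, so differences are relative to the other genes. The deposited arrays did not share 1 distribution, with upper quartiles of 2.80 and 2.78 in WT and 2.99 and 2.98 in dbTg. The median difference over all tested genes was 0.09 as deposited and -0.002 after quantile normalization. Shares of all tested genes given for the main fit carry this shift. Of 41345 probe sets, 23521 had 1 gene symbol in the platform annotation (updated through Entrez identifiers to a RefSeq table of GRCm38.p6, 0 changed), 1814 several and 16010 none. Only the first kind was named. Each gene took its probe set with the highest mean. Genes with a mean at or above the 40th percentile (1.48) were tested, 13308 of 22180.

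The test of genotype was limma 3.58.1 under R 4.3.3 (linear fit, eBayes with an intensity trend, 2 residual and 4.76 prior degrees of freedom), two-sided, Benjamini-Hochberg adjusted over all tested genes, threshold 0.05. Intervals are 95%. With 2 arrays against 2, an exact permutation test cannot go below 0.333. A fit without 1 array assumes that the lone array of a group varies like the other group. The script was checked on simulated data.

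The members and the gene lists were chosen with earlier results of these data known. Genes described with values on every array were those past either threshold and the 2 members with the largest difference in each of 7 roles. Of each other list, up to 4 called genes or the 2 with the smallest p-values were named. Other genes and values were chosen after they were seen.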

Additional observations from a re-analysis of the deposited data

Results flagged for a closer look

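In 3 of the 33 fatty acid genes (9.09%) the male pair and the female pair moved in opposite directions by at least 1.5-fold each, against 0.909% of all tested genes. With 1 pair of mice for each sex, the difference between the pairs could not be tested, and WT 1 was also older than the other mice. Pdk4 was higher in dbTg by 0.68 in the male pair and lower in the female pair (-1.60), so the pairs differed by -2.28 on the log2 scale. Slc27a1 had a difference of 0.61 between the males and of -1.37 between the females, which differ by -1.99. Acads had the opposite order, with -1.02 between the males and 0.60 between the females, which differ by 1.62. In Pdk4 and Slc27a1 the highest array was WT 2 and the lowest dbTg 2. In Acads the highest array was WT 1 and the lowest dbTg 1.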

How the results depend on the processing

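Over all genes, 267 were called higher and 27 lower, 120 and 7 after quantile normalization, 165 and 7 without an intensity filter, and 44 lower with a filter at the 60th percentile, where fewer genes were tested. Without an eBayes trend 14 were called lower. With 1 array left out the counts ran from 4 to 610 higher and from 0 to 156 lower. With the replicate number as a block, 63 genes were called higher and 2 lower; 4 of the 10 called macrophage and leukocyte markers kept their call, and Fasn, Scd1, Adipoq and Lep lost theirs (limma adjusted p of 0.0793 to 0.1002). The numbers match the sex in both groups, and the labels do not say whether they also mark litters or days. The gaps between replicates 1 and 2 correlated at 0.049 between the groups, over all tested genes. That value cannot decide whether animals were paired.

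The count of fatty acid genes called lower was 1 (Lpin1). After quantile normalization 10 members were lower by raw p, but the share of all genes at raw p was taken only in the main fit. The count called lower was 0 with the replicate block, without an eBayes trend, without an intensity filter and after quantile normalization. The count called lower was 2 with robust eBayes and under the stricter intensity filter. It ran from 0 (without either dbTg array) to 6 (without WT 1) when 1 array was left out. No member was called higher in limma in any fit. The median difference ran from -0.50 without WT 1 to -0.006 without WT 2, and was -0.032 in the male pair, a value added after seeing the data. The 12 genes with both dbTg arrays below became 15 to 25 when 1 array was left out, where the share of all tested genes was 25.3% to 29.9%. The 3 genes with both above became 0 after quantile normalization and 3 to 10 when 1 array was left out (44.6% to 48.9% of all tested genes). Fewer arrays make such counts larger by construction. Signs with 1 array left out were followed for 15 members, those past either threshold or with the 2 largest differences of a role. Among these, signs turned for Lpl (-1.32 to 0.13), Hadha (-0.69 to 0.015), Pdk4 (-1.03 to 0.12) and Eci2 (-0.19 to 0.88). They turned without WT 2 for Lpl, Hadha and Pdk4, without dbTg 2 for Pdk4 (0.11) and without WT 1 for Eci2. Other members turned as well. Over all 33, the count of negative differences was 26 in the main fit, 17 without WT 2 and 28 without WT 1. The cause was not tested. Of the 180 values of these 15 genes under the 12 alternatives, 162 kept their sign and their side of the threshold. All of the 15 but Lpin1 were uncalled in the main fit, so keeping their side mostly meant staying uncalled. Changes of the filter, of the eBayes setting or of the block left the log2 differences as they were, so signs could not turn there. No detection calls accompany the values, so low readings have no known floor, and 2 arrays a group limit the precision.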
